A study of Mus musculus with 15 samples.

Results

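The glycolytic enzyme genes described here are the 10 genes Hk1, Pfkm, Aldoa, Gapdh, Pgk1, Eno1, Eno2, Pkm, Ldha and Ldhb, taken by name. No rule on measured values was used, but earlier results of these data were known when the genes were chosen. Every transcript of these genes listed in the deposited values was kept, which gave 22 transcripts of the 10370 listed, or 10 of 7741 genes. A further 90 annotated transcripts of the 10 genes are not listed and were not analysed here. The values come from total RNA of dissected cortex of male C57BL/6 mice, labelled as 12 weeks old, in a Sham group (7 libraries) and a group with high-frequency head impact (HF-HI, 8 libraries), both at 1 month. HF-HI mice received repeated head impacts on consecutive days under isoflurane, and Sham mice had the same handling and isoflurane without impacts. The comparison asks how the cortical levels of these transcripts differed between HF-HI and Sham mice. Because whole cortex was homogenized, fewer cells of a type and less RNA per cell cannot be told apart.

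Glycolysis splits glucose into pyruvate in the cytosol and yields ATP without oxygen. Hexokinase traps glucose in the cell, phosphofructokinase commits it to the pathway, aldolase cleaves the sugar, and the lower enzymes harvest ATP and NADH before lactate dehydrogenase interconverts pyruvate and lactate. Brain depends on glucose as its main fuel, neurons are known for Eno2 (neuron-specific enolase) and the PKM1 form of pyruvate kinase, and astrocytes are known for releasing lactate.

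Pkm and Hk1 show most plainly what separates transcripts of a single gene, so their sequences are given here (GRCm38, 5′ to 3′ on the coding strand). Pkm has a choice between alternative versions of exon 9, of which Pkm-202 carries the PKM1 version and Pkm-201 the PKM2 version. Both are 167 bases long, at chr9:59675029-59675195 and chr9:59675568-59675734 on the plus strand. They hold the same base at 103 positions and different bases at 64 (61.7% identity), and capitals mark the bases that differ. The longest run in which they are equal is 12 bases.
Pkm-202 exon 9: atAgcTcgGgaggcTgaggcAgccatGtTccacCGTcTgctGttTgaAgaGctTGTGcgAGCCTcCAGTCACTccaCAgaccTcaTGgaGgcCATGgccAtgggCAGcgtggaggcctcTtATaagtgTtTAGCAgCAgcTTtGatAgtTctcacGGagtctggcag
Pkm-201 exon 9: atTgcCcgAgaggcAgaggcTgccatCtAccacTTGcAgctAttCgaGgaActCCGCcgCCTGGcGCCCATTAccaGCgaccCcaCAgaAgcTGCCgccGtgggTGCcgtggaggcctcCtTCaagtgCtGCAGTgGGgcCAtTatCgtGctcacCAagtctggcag
The 3 listed Hk1 transcripts start from different first exons on the minus strand of chromosome 10, and the coding bases at their starts are theirs alone among the listed Hk1 transcripts. Those of Hk1-202 cover 63 bases at chr10:62340013-62340075, those of Hk1-205 cover 60 bases at chr10:62342501-62342560, and the first coding exon of Hk1-201 covers 27 bases at chr10:62358336-62358362. No base is capitalised in these, since they lie at different genomic positions and were not aligned with each other.
Hk1-202 start: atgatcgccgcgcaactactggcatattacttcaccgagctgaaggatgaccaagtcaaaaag
Hk1-205 start: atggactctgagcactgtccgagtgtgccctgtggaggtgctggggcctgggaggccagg
Hk1-201 start: atgggacagaactgccagcgaggacag

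The deposited values are variance-stabilized (VSD) values on a log2 scale, which were inverted to normalized counts, meaning reads divided by a depth factor for each library. Reads in the listed transcripts numbered 5798810 to 10582858 in Sham and 3496103 to 8666307 in HF-HI libraries, and mean log2 size factors were 0.30 and -0.25 (exact two-sided permutation, p = 0.0280). HF-HI replicate 2 stood apart on the first principal component of all transcripts, at 12.6 against -3.35 to 0.721 in the other libraries, so differences printed for single members that moved by over 1.5 times without it are also given without it. Markers fixed for neurons and astrocytes were listed for 10 of 10 genes each and none was at 0 in any library. Striatal (7 of 8 genes) and choroid plexus (2 of 6 genes) markers were listed too, so this check cannot tell cortex from other brain regions.

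The summed RNA of the 10 glycolytic genes differed little between the groups. Its level was lowest at 41369, median 42323 and highest at 43358 normalized counts in Sham, and 41612, 42395 and 43219 in HF-HI. The group ranges overlapped almost wholly, and the log2 ratio of the group means was 0.0014. Among single genes the spread was also small, with coefficients of variation of 2.25% to 6.00% in Sham and 2.66% to 7.65% in HF-HI. These 10 genes took 0.576% to 0.624% of the listed reads in a library.

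With reads summed per gene and tested by voom in limma, 1 of the 10 genes (Gapdh) was at an unadjusted p under 0.05, and it was lower in HF-HI. Over all genes 9.44% were at that threshold, 5.19% higher and 4.25% lower in HF-HI, so 1 of 10 is near the background share. By exact two-sided permutation of the group means of log2 summed counts it was instead Pfkm, higher in HF-HI (p = 0.0376), and Gapdh missed the threshold (p = 0.0547), where 9.87% of all genes passed, 5.55% higher and 4.31% lower. No member reached an adjusted p of 0.1, the threshold of the study, against 0.0129% of all genes, and the smallest adjusted p of a member was 0.517 (Benjamini-Hochberg over 7741 genes). The members' median log2 difference was 0.0022 with 5 of 10 above 0, beside -0.0036 over all genes. Per transcript, tested by limma on the VSD values, 1 of 22 members was at an unadjusted p under 0.05, against 8.83% of all transcripts, and that transcript (Aldoa-203) was higher in HF-HI, as 4.94% of all transcripts were while 3.9% were lower. The exact permutation likewise gave 1 of 22 (Aldoa-203, p = 0.0496), against 9.15% of all transcripts, 5.22% higher and 3.93% lower. The median VSD difference of the 22 was -0.0025, with 11 above 0, beside -0.0013 over all transcripts. At the adjusted threshold limma called 0 of 22 and 0.0% of all transcripts. No member transcript or gene had groups that did not overlap, which 0.154% of all transcripts and 0.181% of genes had.

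**Figure D1:**
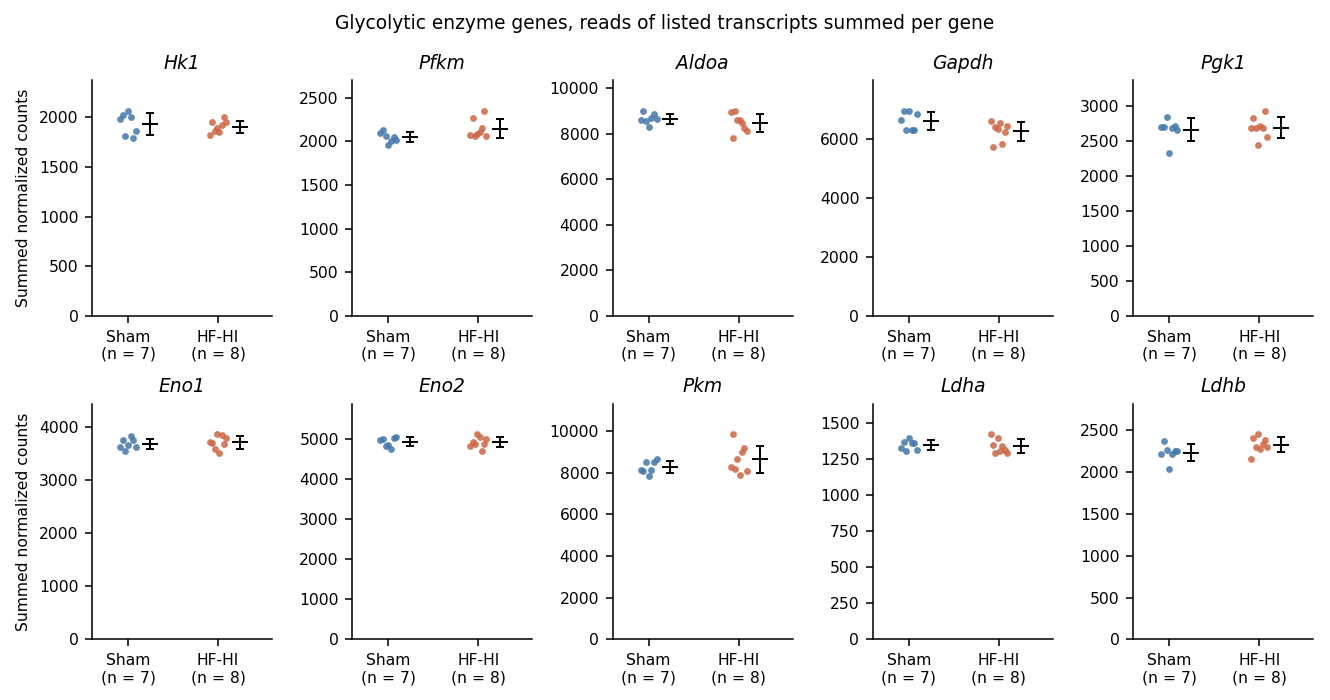
Summed normalized counts of each glycolytic gene (vertical axis, from 0), 1 point per library, for Sham (blue, n = 7) and HF-HI (orange, n = 8), with the mean and SD beside the points. The groups overlap in every panel, and Gapdh has all 8 HF-HI libraries below the Sham median of 6646.

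Hexokinase and phosphofructokinase open the pathway. Hk1 (chr10:62268855-62340542 for Hk1-202, minus strand), the main hexokinase of brain, had a lowest, median and highest level of 1787, 1982 and 2062 summed normalized counts in Sham and of 1816, 1907 and 1997 in HF-HI. All HF-HI libraries lay within the Sham range. The log2 difference, HF-HI minus Sham, was -0.026 (95% interval -0.100 to 0.049), with an adjusted p of 0.874 by voom. Pfkm (chr15:98108466-98132441 for Pfkm-201, plus strand), the muscle-type phosphofructokinase subunit, had 1955, 2052 and 2128 in Sham and 2060, 2100 and 2349 in HF-HI. Each of the 8 HF-HI libraries was above the Sham median, and 3 were above every Sham library. Its log2 difference was 0.063 (-0.0023 to 0.128), with an adjusted p of 0.554 by voom. It missed the unadjusted threshold in voom and passed it in the exact permutation (p = 0.0376). In voom it passed without Sham replicate 2 or HF-HI replicate 1, 3 or 8, with differences of 0.069 to 0.072. With the size factor as a covariate the difference was 0.022, and 0.052 without HF-HI replicate 2.

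Aldolase and glyceraldehyde-3-phosphate dehydrogenase follow. Aldoa (chr7:126795234-126799254 for Aldoa-201, minus strand), aldolase A, cleaves fructose bisphosphate into trioses, and its summed level was 8311, 8627 and 8992 normalized counts in Sham against 7806, 8517 and 8995 in HF-HI. HF-HI libraries spread more widely than Sham, with 3 below every Sham library and 1 above. The log2 difference was -0.030 (-0.091 to 0.030; voom, adjusted p = 0.787), and it was -0.015 without HF-HI replicate 2. The differences of Aldoa-201 and Aldoa-203 had opposite signs. Among the listed Aldoa transcripts they have 85 and 160 exonic bases of their own, 0 of them coding. Their separate values thus rest in part on how the authors' estimation divided the reads. The leading Aldoa-201 had means of 7936 ± 220 (SD, n = 7) in Sham and 7616 ± 440 (SD, n = 8) in HF-HI, a VSD difference of -0.050 (exact p = 0.102). Without HF-HI replicate 3 the difference was -0.064 and passed the unadjusted threshold in limma, whereas it was -0.035 without HF-HI replicate 2 and -0.014 with the size factor as a covariate. Aldoa-203 was lower in level, at 420, 590 and 687 in Sham and 555, 681 and 934 in HF-HI. Of its HF-HI libraries 4 were above every Sham library, and the groups overlapped in the others. Its VSD difference was 0.117 (0.010 to 0.224), with an adjusted p of 0.532 by limma and an exact p of 0.0496, and the means gave a log2 ratio of 0.31. VSD differences understate log2 fold changes at such levels, since doubling 1000 normalized counts moves the VSD by only 0.53. The call was lost with the size factor as a covariate (0.016) and with library weights (0.093). It was also lost without any 1 of Sham replicates 4, 5 and 7 and HF-HI replicates 1, 4, 6 and 7 (0.092 to 0.114). Depth was lower in HF-HI, and beyond that covariate its part in this difference was not tested. The minor Aldoa-209, annotated with a retained intron, ranged from 95.8 to 220.0 normalized counts over all libraries, with a VSD difference of -0.018 (exact p = 0.631) that was -0.037 without HF-HI replicate 2.

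Gapdh (chr6:125161854-125165773 for Gapdh-203, minus strand) oxidizes glyceraldehyde-3-phosphate and yields NADH, and is often used as a reference gene. Its summed level was 6306, 6646 and 6946 normalized counts in Sham and 5725, 6362 and 6620 in HF-HI. HF-HI libraries were below the Sham median in 8 of 8, and 3 were below every Sham library. The log2 difference was -0.075 (-0.149 to -0.0016), a fold of 0.949, with an adjusted p of 0.517 by voom. It passed the unadjusted threshold in voom and missed it in the exact permutation (p = 0.0547). The direction held in every scaling tried, but the voom call was lost with the size factor as a covariate (-0.040), with the replicate number as a block (-0.079), and without any 1 of Sham replicates 1, 2, 4 and 7 and HF-HI replicates 2, 4, 6 and 7. Those single omissions gave differences of -0.058, without HF-HI replicate 2, to -0.077. Its leading transcript Gapdh-203 had 5726, 6123 and 6587 in Sham and 4433, 5795 and 6320 in HF-HI, with a VSD difference of -0.091 (exact p = 0.0547). Without HF-HI replicate 1 that difference was -0.109 and passed the unadjusted threshold in limma, as did the -0.097 after quantile normalization. It was -0.053 without HF-HI replicate 2, whose 4433 was the lowest value, and -0.056 with the size factor as a covariate. Processed pseudogenes of Gapdh and of other members exist in the mouse genome, and how reads were divided with them was not tested.

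Pgk1 (chrX:106187100-106203699, plus strand), phosphoglycerate kinase, makes the first ATP of the lower pathway and had a single listed transcript. Its level was 2320, 2702 and 2834 normalized counts in Sham and 2440, 2683 and 2926 in HF-HI. Both groups were widely spread and shared nearly their whole range, with Sham replicate 4 lowest. The log2 difference was 0.019 (-0.068 to 0.106; voom, adjusted p = 0.929). It turned to -0.015 without Sham replicate 4 and to -0.012 with the size factor as a covariate, and was 0.0098 without HF-HI replicate 2.

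The enolases make phosphoenolpyruvate. Eno1 (chr4:150236952-150248879, plus strand), the widely expressed alpha enolase, had 3553, 3659 and 3839 normalized counts in Sham and 3516, 3718 and 3868 in HF-HI. Eno2 (chr6:124760055-124769673 for Eno2-201, minus strand), the neuronal gamma enolase, had 4750, 4959 and 5036 in Sham and 4700, 4897 and 5106 in HF-HI. In both genes the HF-HI range enclosed the Sham range. The log2 differences were 0.0066 (-0.047 to 0.061) for Eno1 and -0.0023 (-0.049 to 0.045) for Eno2, and these were the narrowest intervals of the 10 genes (voom, adjusted p = 0.961 and 0.986). Their signs were not stable, since leaving out a single library gave -0.0015 to 0.020 for Eno1 and -0.011 to 0.0065 for Eno2. Of the minor Eno2 transcripts, Eno2-203, annotated with a retained intron, had means of 419 ± 94.8 (SD, n = 7) and 504 ± 137 (SD, n = 8). Its VSD difference was 0.085 (exact p = 0.215), 0.122 without HF-HI replicate 7, which passed the unadjusted threshold in limma, and 0.055 without HF-HI replicate 4. Eno2-213 had a VSD difference of -0.020 (exact p = 0.694). That turned to 0.0018 without HF-HI replicate 2 and to 0.019 with the size factor as a covariate. Eno2-202, with 0 exonic bases of its own among the listed Eno2 transcripts, had -0.063 (exact p = 0.300), and -0.024 with the size factor.

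Pyruvate kinase ends the pathway with a second ATP-yielding step. Pkm (chr9:59656573-59679189 for Pkm-202, plus strand) had 7829, 8146 and 8644 summed normalized counts in Sham and 7907, 8465 and 9840 in HF-HI. The HF-HI libraries were more spread, and 4 lay above every Sham library, HF-HI replicate 2 highest. The log2 difference was 0.054 (-0.032 to 0.139; voom, adjusted p = 0.737). It was 0.028 without HF-HI replicate 2 and -0.022 with the size factor as a covariate. Pkm-202, with the PKM1 exon, had means of 7615 ± 214 (SD, n = 7) and 7988 ± 567.6 (SD, n = 8), and Pkm-201, with the PKM2 exon, had 649 ± 106 and 650 ± 123. The VSD differences were 0.055 and 0.00032 (exact p = 0.131 and 0.995). Without HF-HI replicate 2 they were 0.036 and -0.031, and with the size factor as a covariate -0.0062 and -0.052.

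Lactate dehydrogenase has subunits from Ldha, the A or muscle type, and Ldhb, the B or heart type. Ldha (chr7:46845839-46855627, plus strand) had 1305, 1359 and 1392 normalized counts in Sham and 1290, 1326 and 1419 in HF-HI. Ldhb (chr6:142490249-142507957, minus strand) had 2041, 2254 and 2378 in Sham and 2160, 2322 and 2452 in HF-HI. Ldha libraries of the groups were mixed, whereas for Ldhb 7 of 8 HF-HI libraries were above the Sham median and 3 above every Sham library. The log2 differences were -0.016 (-0.075 to 0.044) for Ldha and 0.057 (-0.013 to 0.126) for Ldhb (voom, adjusted p = 0.910 and 0.641, and exact p = 0.648 and 0.0783). Ldhb passed the unadjusted threshold without Sham replicate 2 or without HF-HI replicate 1 (voom, 0.072 in each). Its difference was 0.034 without Sham replicate 4 and 0.0099 with the size factor as a covariate.

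**Figure D2:**
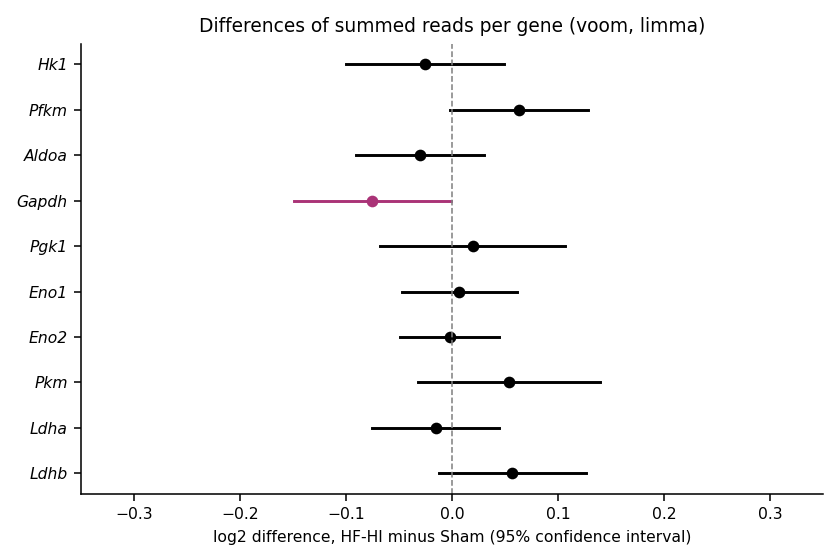
Differences between HF-HI and Sham in log2 summed reads per gene (horizontal axis), each with its 95% confidence interval from voom, in pathway order. Every interval lies between -0.149 and 0.139, and only that of Gapdh (purple, unadjusted p under 0.05) does not include 0.

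Per transcript length the glycolytic enzymes were among the most abundant of the listed genes, with ranks from 42 (Aldoa) to 867 (Hk1) of 7741. Aldoa was highest at 5746 ± 217 normalized counts per kb (SD over 15 libraries), followed by Gapdh at 4627 ± 241, Pkm at 4096 ± 259, Eno2 at 2088 ± 77.02, Eno1 at 1828 ± 54.0, Ldhb at 1751 ± 79.9, Pgk1 at 1466 ± 81.6, Ldha at 845 ± 25.2, Pfkm at 733 ± 35.3 and Hk1 at 520 ± 29.3. Hk1 and Pfkm, from the first steps, were thus the lowest of the 10. Pfkm is not the only phosphofructokinase gene listed, and its level is not that of the whole step. Mean summed normalized counts were 2101 for Pfkm, 2196 for Pfkp and 806 for Pfkl. Neighbours in this order that overlapped over libraries were Gapdh with Pkm (Gapdh higher in 13 of 15 libraries), Eno1 with Ldhb (12 of 15), Ldhb with Pgk1 and Ldha with Pfkm (15 of 15 each). The other neighbours did not overlap.

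**Figure D3:**
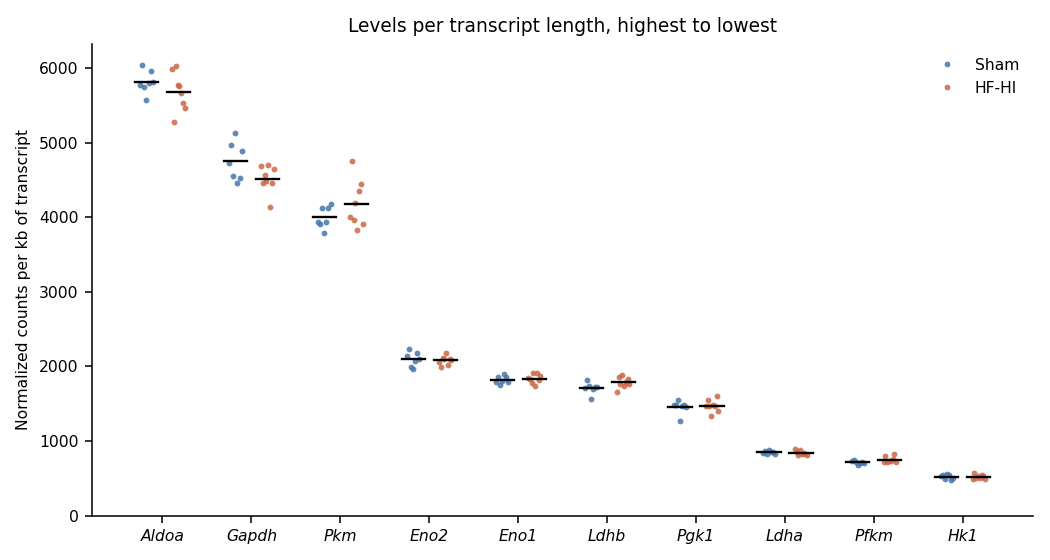
Normalized counts per kb of transcript (vertical axis, from 0) for the 10 genes in descending order, 1 point per library, Sham in blue and HF-HI in orange, with a line at each group mean. Aldoa (5746), Gapdh (4627) and Pkm (4096) stand above the other genes, which lie at or below 2088.

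How steadily the reads of a gene were divided among its transcripts differed from gene to gene. Pkm was the steadiest, with 92.35% of its reads in Pkm-202 (90.6% to 93.8% over libraries) and 7.65% in Pkm-201, whose exon 9 differs from it at the capital letters printed above. Hk1 was the least steady, with 57.0% in Hk1-202 (38.0% to 81.2%), 29.5% in Hk1-205 and 13.5% in Hk1-201. Hk1-201 had 36.0 normalized counts in Sham replicate 7 against 263 to 483 in the other Sham libraries, and 17.1 and 29.5 in HF-HI replicates 7 and 8 against 203 to 413 in the others. In those same libraries the summed Hk1 level stayed at 1863, 1997 and 1951. The VSD differences were -0.020 for Hk1-202, 0.077 for Hk1-205 and -0.165 for Hk1-201 (exact p = 0.789, 0.292 and 0.220). That of Hk1-201 was -0.251 without Sham replicate 7 and -0.111 with the replicate number as a block, and each passed the unadjusted threshold in limma. The block gives no weight to HF-HI replicate 8, which has no same-numbered Sham library, and it pairs Sham replicate 7 with HF-HI replicate 7. These are the 3 libraries with the low Hk1-201 values. Without HF-HI replicate 7 the Hk1-201 difference was -0.102. The difference of Hk1-202 turned to 0.014 without HF-HI replicate 2 and to 0.048 with the size factor as a covariate. That of Hk1-205 was 0.038 without HF-HI replicate 2 and -0.0074 with the size factor.

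Pfkm-201 held 81.3% of Pfkm reads (from 58.7% up to all of them), and Pfkm-202, which has 83 exonic bases of its own and none of them coding, was at 0 in HF-HI replicate 3 and at 937 normalized counts in HF-HI replicate 2. The mean levels of Pfkm-202 were 399 ± 122 (SD, n = 7) in Sham and 396 ± 287 (SD, n = 8) in HF-HI. For Pfkm-201 the VSD difference was 0.046 (exact p = 0.317), 0.077 without HF-HI replicate 2, which passed the unadjusted threshold in limma, and 0.026 without HF-HI replicate 3. For Pfkm-202 it was -0.085 (exact p = 0.664), -0.166 without HF-HI replicate 2 and 0.036 without HF-HI replicate 3. With the size factor as a covariate the differences were 0.104 for Pfkm-201 and -0.344 for Pfkm-202. Each passed the unadjusted threshold in limma (adjusted p = 0.932 for both), in opposite directions. Gapdh-203 held 91.6% of Gapdh reads (77.4% to 97.0%). Gapdh-212 was at 0 in HF-HI replicates 4 and 6, at 948 in HF-HI replicate 2 and between 0.699 and 491 in the Sham libraries. Gapdh-201 and Gapdh-212 have 0 exonic bases of their own among the listed Gapdh transcripts and Gapdh-202 has 1, so their separate values rest on the authors' estimation and were not read as changes. Eno2-201 held 80.5% of Eno2 reads (75.1% to 85.5%) and Aldoa-201 held 90.7% of Aldoa reads (87.5% to 93.9%). Pgk1, Eno1, Ldha and Ldhb had a single listed transcript each.

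Shares of the leading transcript were compared between groups in the 6 genes with several listed transcripts, by exact two-sided permutation over every split of the libraries. Aldoa-201 held 91.6% ± 1.196 of Aldoa reads in Sham and 89.9% ± 1.62 in HF-HI, and 4 of 8 HF-HI libraries were below every Sham library. That difference of -1.73 percentage points had an exact p of 0.0389 and an adjusted p of 0.233 over the 6 genes. It was lost when any 1 of 9 libraries was left out (Sham replicates 1, 2, 4, 5 and 7 and HF-HI replicates 2, 4, 6 and 7; -1.35 to -1.78 points, exact p = 0.0503 to 0.0879). Among libraries with a size factor above 1 it was -0.449 points (exact p = 0.583). For the other 5 genes the exact p ranged from 0.420 (Gapdh) to 0.964 (Hk1), with differences of -2.33 points for Gapdh and 0.333 points for Pkm. Without HF-HI replicate 2, the library at 77.4%, that of Gapdh was -0.453 points and that of Pkm 0.605 points.

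**Figure D4:**
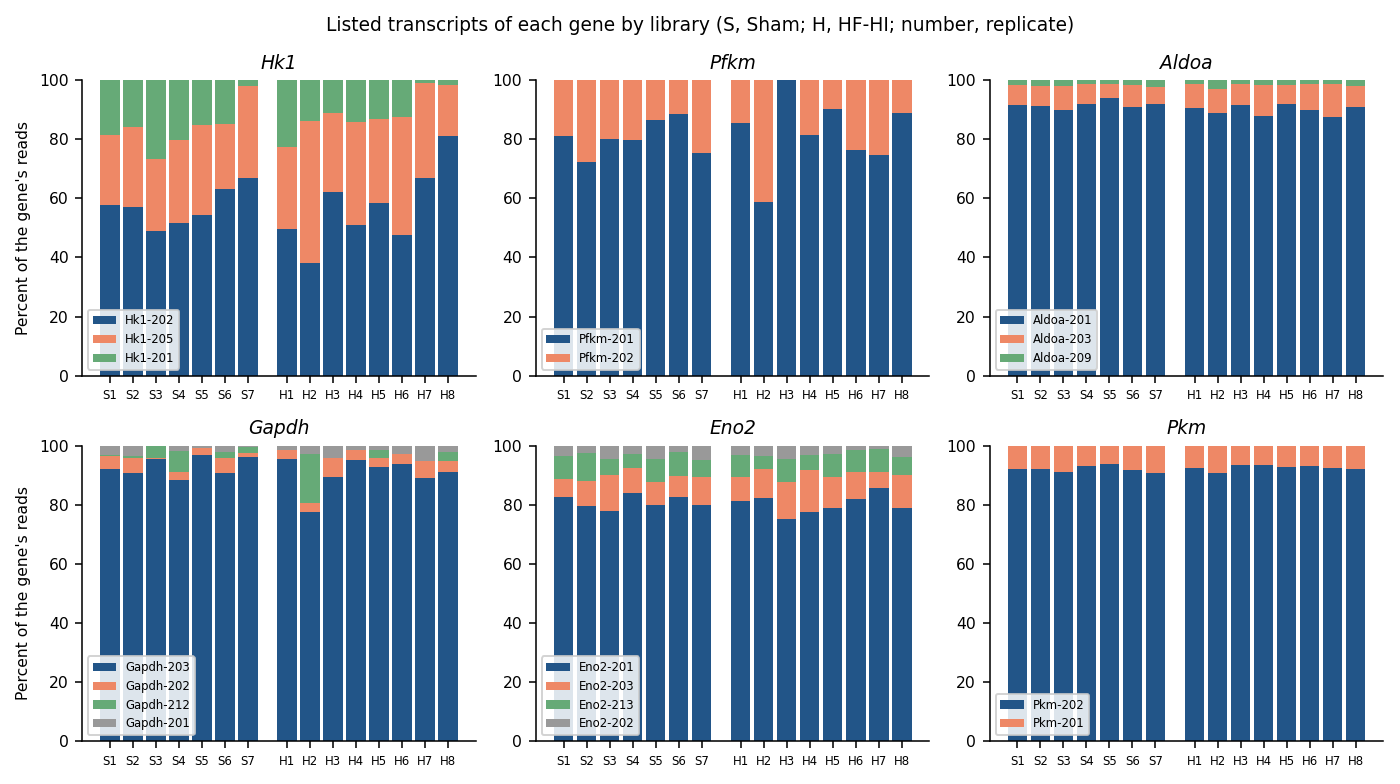
Percent of each gene's reads in its listed transcripts (vertical axis, 0 to 100), 1 bar per library, for the 6 genes with several listed transcripts. Hk1 and Pfkm bars differ widely between libraries of the same group, whereas Pkm-202 stays between 90.6% and 93.8%.

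Ratios between genes of the same enzymatic step do not depend on library scaling, and 4 were tested by exact two-sided permutation over every split of the libraries. Ldha had 0.589 reads for each read of Ldhb, averaged over libraries, Eno1 had 0.754 for each of Eno2, Aldoa had 2.20 for each of its paralogue Aldoc, an aldolase known from astrocytes, and Pfkm had 0.957 for each of Pfkp, the platelet-type subunit. The log2 Ldha to Ldhb ratio was lowest at -0.796, median -0.744 and highest at -0.552 in Sham, and -0.857, -0.822 and -0.606 in HF-HI. In 7 of 8 HF-HI libraries it was below every Sham library, while HF-HI replicate 1 (-0.606) was above all Sham libraries except replicate 4 (-0.552). The difference of -0.071 did not pass (exact p = 0.132, adjusted p = 0.264 over the 4 ratios). Without HF-HI replicate 1 it was -0.098, with an exact p of 5.83e-04, and without Sham replicate 4 it was -0.041 with an exact p of 0.285. HF-HI replicate 1 is the only HF-HI library not below every Sham library. Leaving it out therefore separates the groups fully, and that p is the smallest the test can then give.

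The log2 Aldoa to Aldoc ratio was 0.911, 1.09 and 1.19 in Sham and 1.08, 1.19 and 1.30 in HF-HI. In 5 of 8 HF-HI libraries it was above every Sham library. The difference of 0.107 had an exact p of 0.0238 and an adjusted p of 0.0951 over the 4 ratios, which is under 0.1. A ratio of Hk1 to Hk2 was planned too but could not be formed, and the adjustment does not count it. Without Sham replicate 4 the Aldoa to Aldoc difference was 0.079 (exact p = 0.0516). With the leading transcripts alone, Aldoa-201 and Aldoc-202, it was 0.020 (exact p = 0.707). Aldoa itself differed by -0.030, and summed Aldoc had means of 4107 ± 184 (SD, n = 7) in Sham and 3732 ± 258 (SD, n = 8) in HF-HI, with a log2 difference of -0.132 (-0.218 to -0.046; voom, adjusted p = 0.292). Eno1 to Eno2 and Pfkm to Pfkp differed by 0.013 and 0.026 (exact p = 0.698 and 0.482).

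**Figure D5:**
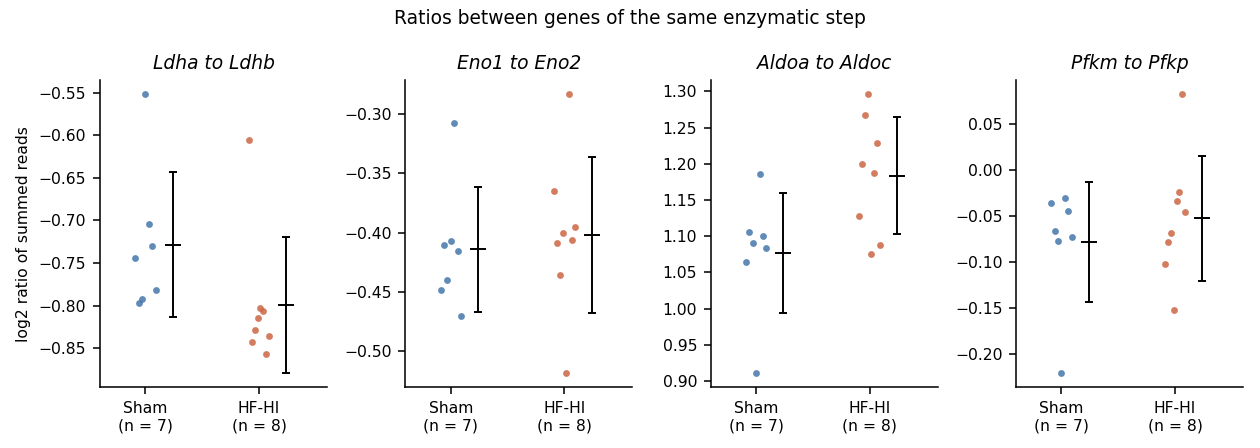
Log2 ratios of summed reads (vertical axes, which do not start at 0 and differ between panels) for Ldha to Ldhb, Eno1 to Eno2, Aldoa to Aldoc and Pfkm to Pfkp, 1 point per library with the mean and SD of each group. Single libraries stand apart from their group, as Sham replicate 4 at -0.552 and HF-HI replicate 1 at -0.606 for Ldha to Ldhb.

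Other genes around the pathway were counted at an unadjusted p under 0.05 by limma per transcript, which 8.83% of all transcripts passed (4.94% higher and 3.9% lower in HF-HI). Of other glycolytic steps 6 of 17 genes were listed with 10 transcripts, of which 1 was higher and 1 lower in HF-HI. Gpi1-203, a transcript with a retained intron of glucose-6-phosphate isomerase, had means of 306 ± 32.3 (SD, n = 7) and 368 ± 44.9 (SD, n = 8) and a VSD difference of 0.077 (limma, adjusted p = 0.404). Aldoc-201 had 1050 ± 70.9 and 841 ± 138, a VSD difference of -0.150 (limma, adjusted p = 0.338). Their median VSD difference was -0.00022, near the -0.0013 of all transcripts. Hk2 is not among the listed genes, so no ratio of Hk1 to Hk2 was formed.

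Regulators of glycolytic flux (5 of 9 genes, 7 transcripts), glucose and lactate transporters (6 of 10 genes, 8 transcripts) and genes for pyruvate entry into mitochondria (12 of 14 genes, 17 transcripts) had 0 calls in either direction by limma, and 0 of their summed genes passed by voom. The genes with the most reads in these lists were Hif1a, a transcription factor that induces glycolytic genes, at 883 ± 41.4 and 843 ± 42.5 normalized counts, Bsg, a chaperone of lactate transporters, at 1637 ± 97.6 and 1615 ± 86.8, and Pdp1, a pyruvate dehydrogenase phosphatase, at 2245 ± 316 and 2199 ± 182 (SD, n = 7 Sham and 8 HF-HI). Of the glycogen genes (5 of 8, 6 transcripts) 1 transcript was lower, Pgm1-201 of phosphoglucomutase, at 350.5 ± 17.42 and 318 ± 12.2 with a VSD difference of -0.040 (limma, adjusted p = 0.383). The pentose phosphate pathway (4 of 8 genes, 4 transcripts) had 0 calls per transcript by limma. By voom 1 of its genes was lower, G6pdx, the enzyme of the entry step, at 169 ± 7.64 and 152 ± 18.8 (log2 difference -0.156, adjusted p = 0.502). The median VSD differences of these lists were -0.013 for regulators, -0.0020 for transporters, -0.0037 for pyruvate entry, -0.025 for glycogen and -0.022 for the pentose phosphate pathway, beside -0.0013 over all transcripts.

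Marker lists were set beside these values, with calls counted per transcript by limma as above (8.83% of all transcripts, 4.94% higher and 3.9% lower). Neuronal markers (10 of 10 genes, 26 transcripts) summed to 62243 to 63730 normalized counts in Sham and 61903 to 67882 in HF-HI, with 3 transcripts higher (Snap25-201, Nefm-201 and Camk2a-203) and 1 lower (Stmn2-201). Astrocyte markers (10 of 10 genes, 13 transcripts) summed to 48435 to 51004 and 48910 to 54141, with 0 calls by limma or, per gene, by voom. Microglial markers (7 of 8 genes) summed to 2131 to 2268 and 1965 to 2310, with 1 of 7 transcripts lower (P2ry12-202). The median VSD differences were 0.021 for neuronal, -0.0078 for astrocyte, -0.0094 for microglial and -0.037 for striatal markers. Oligodendrocyte (8 of 8 genes), endothelial (5 of 6) and blood (3 of 5) markers had 0 calls by either test. Striatal markers (7 of 8 genes, 14 transcripts) summed to 7013 to 10672 in Sham and 4993 to 10106 in HF-HI, with 3 transcripts lower (Penk-201, Ppp1r1b-201 and Pde10a-202), and choroid plexus markers (2 of 6 genes) ranged from 1972 to 11212 and from 2018 to 13832. No listed marker gene summed to 0 in a library, while the single transcripts Mobp-202 of oligodendrocytes and Hbb-bs-202 of blood were at 0 in Sham replicate 4 and HF-HI replicate 6. The part of these differences in the Gapdh, Aldoa-203 and Aldoa to Aldoc values was not tested.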

How the data were processed

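Total RNA of mouse cortex was sequenced in 7 Sham and 8 HF-HI libraries (ribosomal RNA depletion, stranded kit). The authors aligned reads to mm10 (STAR), used eXpress to estimate a count for each Ensembl transcript, and deposited variance-stabilized log2 values from DESeq2 for 10370 transcripts. Per the study's methods, outlying genes of low mean count were removed; the annotation release is not given in the sources used here. The lowest listed mean was 107.9 normalized counts, so scarcer transcripts were not analysed here.

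The transformation was inverted with the shared value of a count of 0 (VSD 9.81), and 100.0% of values were whole reads within 0.1 reads in every library. A read was worth 0.679 to 2.00 normalized counts, which limits precision most in HF-HI replicates 4 and 7. Transcripts were matched to GENCODE M21 (GRCm38), with 10241 matched. Members were all listed transcripts of the 10 genes. These members, the gene lists and the tests were chosen with earlier results of these data known. All members were named, the partner genes of the ratios too, and of other lists the transcripts at an unadjusted p under 0.05 or, where there was none, the gene with the most reads.

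Group was the only term. VSD values were fitted with limma 3.58.1 (R 4.3.3; eBayes with trend), and reads summed per gene with voom, both over the whole table with Benjamini-Hochberg adjustment at 0.1. Ratios and shares were tested by exact permutation. The code was tested on simulated data. The labels do not say that libraries came from separate mice, so p-values measure the spread between these libraries. The exact permutation of each member's difference (VSD, or log2 of summed counts plus 1), and ratios and shares among libraries with a size factor above 1 (6 Sham, 3 HF-HI), were added after seeing the data.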

Additional observations from a re-analysis of the deposited data

Results flagged for a closer look

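Samples far from the rest of their group, by the gap to the nearest other sample over the range of the group, were found in 9 of 78 groups of values (11.5%). Chance alone gives about 5% of groups of independent values. The transcript, gene, share and ratio values counted here share reads, so the flags are not independent. HF-HI replicate 2 accounted for 4 of them, at 4433 normalized counts for Gapdh-203 (next lowest 5462), 948 for Gapdh-212 (next highest 194), 925 for Pkm-201 (next highest 705) and 77.4% of Gapdh reads in Gapdh-203 (next lowest 89.2%). Sham replicate 4 accounted for 3, at 2320 normalized counts for Pgk1 (next lowest 2659), a log2 Ldha to Ldhb ratio of -0.552 (next highest -0.705) and a log2 Pfkm to Pfkp ratio of -0.221 (next lowest -0.077). HF-HI replicate 1 had a log2 Ldha to Ldhb ratio of -0.606 (next highest -0.802), and Sham replicate 5 a log2 Eno1 to Eno2 ratio of -0.307 (next highest -0.408). HF-HI replicate 2 is also the library apart on the first principal component, and Sham replicate 4 has the highest size factor, 1.47.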

How the results depend on the processing

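No member reversed a called direction, and of 544 alternative values for member transcripts and 250 for member genes, 500 and 220 kept direction and side of the unadjusted threshold. Member transcripts at that threshold (1) numbered 2 with the size factor as a covariate, 3 with quantile normalization, 0 with library weights and 0 to 2 with a library left out. The 2 with the size factor were Pfkm-201, higher in HF-HI, and Pfkm-202, lower. Member genes (1) numbered 0 with the size factor and 0 to 3 with a library left out. Over all features, 916 transcripts became 533 with the size factor and 525 with a minimum mean of 300 normalized counts (fewer were tested), 731 genes became 475 with the size factor, and at the adjusted threshold transcripts numbered 0 to 1 and genes 0 to 13 (without Sham replicate 4) with a library left out. The 1 gene at that threshold became 0 with the size factor, quantile normalization, the minimum of 300, and log2 of summed counts plus 1 or 10. With a library left out, Ldha to Ldhb ranged from -0.098 to -0.041, Eno1 to Eno2 from -0.0045 (without HF-HI replicate 6) to 0.030 and Aldoa to Aldoc from 0.079 to 0.125, and leading shares from -2.01 to -1.35 points for Aldoa, -3.72 to 2.45 for Hk1, -3.09 to -0.453 (without HF-HI replicate 2) for Gapdh, 0.103 to 0.610 for Pkm, -1.50 to -0.015 for Eno2 and -1.19 (without HF-HI replicate 3) to 4.71 for Pfkm. Among libraries with a size factor above 1 (6 Sham and 3 HF-HI, chosen after seeing the data), Eno1 to Eno2 was -0.040 and Aldoa to Aldoc 0.069. The leading shares there were 8.70 points for Hk1, 12.4 for Pfkm (exact p = 0.0357), -0.449 for Aldoa and -3.79 for Eno2 (exact p = 0.0238). These HF-HI libraries are replicates 3, 5 and 8, and replicate 3 had all its Pfkm reads in Pfkm-201. So few libraries allow few splits, which makes these p-values coarse. Leading transcripts alone gave 0.020 for Aldoa to Aldoc, and protein-coding transcripts alone 0.829 points for Eno2. The cause was not tested for these except where fewer features or libraries entered. Depth limits the HF-HI libraries most, and the file lists no transcript under a mean of 107.9 normalized counts.

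The labels do not say whether same-numbered libraries share more than a number. Correlations of their deviations were -0.138 to 0.0905 over 7 pairs, and differently numbered pairs were not compared. With the replicate block, member transcripts at the unadjusted threshold numbered 2, member genes 0, and genes at the adjusted threshold 0, Aldoa to Aldoc was 0.120 (exact p = 0.0781) and the Aldoa share -1.86 points (exact p = 0.0625).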
